A study of Mus musculus with 16 samples.

Results

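10 genes of the Wnt pathway are described here across blood cell development from mouse embryonic stem (ES) cells, in cells with and without functional Sp1, a transcription factor that binds GC-rich DNA. They are the ligands Wnt3, Wnt5a and Wnt9a, the signal enhancer Rspo3, the secreted proteins Dkk1, Dkk3 and Sfrp1, the nuclear factors Lef1 and Tcf7, and the feedback gene Axin2. They were chosen by symbol, with earlier results of these data known. They were found on the array through the RefSeq accession of each probe, the brightest probe standing for a gene. All 10 were found, among 37154 genes tested, and 8 of them have a single probe. The values are the log2 intensities that the authors deposited, and every difference below is a difference of log2 values.

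The study hybridised 16 single-colour Agilent mouse arrays, 2 for each of 4 sorted populations in each of 2 genotypes. Flk1+ cells were taken from embryoid bodies and are mesoderm that can give rise to blood and vessels. The other populations were sorted from blast cultures started with Flk1+ cells. HE1 is the first stage of haemogenic endothelium (KIT+ Tie2+ CD41-), HE2 the second (KIT+ Tie2+ CD41+), and progenitors are KIT+ Tie2- CD41+. The control cells, labelled E14 and written Sp1+/+ here, are wild-type ES cells. Sp1-/- cells carry a mutant Sp1 allele whose truncated protein lacks the DNA-binding domain, and the labels give the same strain background, C57BL/6, for both genotypes. The labels do not say whether each genotype is a single ES-cell clone.

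Wnt ligands are secreted proteins that bind Frizzled receptors and Lrp co-receptors, which stops the destruction complex from degrading beta-catenin. Beta-catenin then enters the nucleus and joins Lef1, Tcf7 and related factors on the promoters of target genes, among them Axin2, whose product feeds back to restrain the pathway. Some ligands, Wnt5a among them, act largely without beta-catenin. The pathway is known for inducing mesoderm and for timed roles in the formation of blood from haemogenic endothelium.

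Sp1 recognises the GC box, GGGCGG. Windows of 250 bases upstream of annotated transcript starts (RefSeq, mouse assembly GRCm38.p6) were at hand for 6 of the 10 genes, 10 windows in all. A GC box on either strand lay in 8 of the 10 windows, from 5 genes, and in 32.7% of all 32851 windows of that length. The first 2 Lef1 windows overlap and hold the same box, which the count takes for both. The TCF/LEF motif CTTTGAT, on either strand, lay in none of the 10 and in 3.21% of all windows. 4 windows outside coding sequence are printed to show how far these genes differ in this respect, 5′ to 3′ on the gene's own strand, with GC boxes on either strand (GGGCGG or CCGCCC) in capitals.
Wnt9a, chr11:59306680-59306929, plus strand: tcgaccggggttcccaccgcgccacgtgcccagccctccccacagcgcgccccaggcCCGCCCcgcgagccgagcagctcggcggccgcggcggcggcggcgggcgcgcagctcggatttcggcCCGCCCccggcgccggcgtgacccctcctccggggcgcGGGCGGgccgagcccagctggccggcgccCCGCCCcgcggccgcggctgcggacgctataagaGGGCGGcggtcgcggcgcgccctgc
Wnt3, chr11:103773925-103774174, plus strand: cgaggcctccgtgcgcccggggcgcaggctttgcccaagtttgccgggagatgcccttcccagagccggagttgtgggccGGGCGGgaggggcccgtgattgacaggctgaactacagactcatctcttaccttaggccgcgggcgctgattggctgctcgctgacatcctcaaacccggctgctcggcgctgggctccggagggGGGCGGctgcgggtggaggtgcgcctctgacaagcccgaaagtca
Lef1, chr3:131110047-131110296, plus strand: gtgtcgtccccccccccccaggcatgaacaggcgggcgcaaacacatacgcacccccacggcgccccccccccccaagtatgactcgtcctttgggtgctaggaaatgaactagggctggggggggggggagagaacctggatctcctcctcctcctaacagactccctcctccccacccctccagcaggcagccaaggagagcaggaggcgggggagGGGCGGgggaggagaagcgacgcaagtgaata
Dkk1, chr19:30549497-30549746, minus strand: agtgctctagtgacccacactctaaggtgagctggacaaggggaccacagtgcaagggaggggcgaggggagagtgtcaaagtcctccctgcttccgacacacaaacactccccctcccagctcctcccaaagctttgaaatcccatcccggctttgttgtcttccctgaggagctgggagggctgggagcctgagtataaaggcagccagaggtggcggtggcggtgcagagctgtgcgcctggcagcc
The Wnt9a window held 5 GC boxes, 2 on the strand shown and 3 on the opposite strand, and its base composition was 84.4% G and C. The last 81 bases of that window lie inside the annotated gene. The Wnt3 window held 2 boxes, the Lef1 window printed here 1, and the Dkk1 window, with 60.8% G and C, none. The Lef1 windows that start at 131112541 and 131156044 lie wholly inside the annotated gene and held 1 box and 0. The Tcf7 windows held 2 and 1 boxes and the Axin2 window 2, all of them inside the annotated genes. Windows of Wnt5a, Dkk3, Sfrp1 and Rspo3 were not used here. A match is a run of letters and not a bound site, and no binding data enter these comparisons.

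The genotype labels were checked first on Sp1 itself. Its log2 intensity was 12.14 to 12.56 on the 8 Sp1+/+ arrays and 9.03 to 10.29 on the 8 Sp1-/- arrays, and the difference was -2.28 for Flk1+, -3.28 for HE1, -2.56 for HE2 and -2.90 for progenitors. The populations were checked on the summed signal of marker lists. The mesoderm sum was highest in Flk1+ cells (log2 of the sum 15.68 to 16.31 in Sp1+/+ and 16.11 to 16.29 in Sp1-/-). Of its genes, Kdr and Etv2 were well above background in every population. The endothelial sum was highest in HE1 (16.47 to 16.59 in Sp1+/+ and 16.20 to 16.23 in Sp1-/-), and the blood sum was highest in progenitors. The 8 arrays of each genotype shared a slide of their own, which means that an effect of the slide cannot be told apart from an effect of the genotype. The series design calls the replicates biological and a legend calls them technical, so p-values measure only the spread between these samples. In sorted populations of this kind, fewer expressing cells and less RNA per cell cannot be told apart. Calls require a 2-fold change and a p (limma) no higher than 0.01, taken here as unadjusted since the study's methods do not say, and adjusted p-values (Benjamini-Hochberg) cover all genes tested. The deposited values carry an added offset, which compresses changes of dim genes, so their folds are understated.

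**Figure D1:**
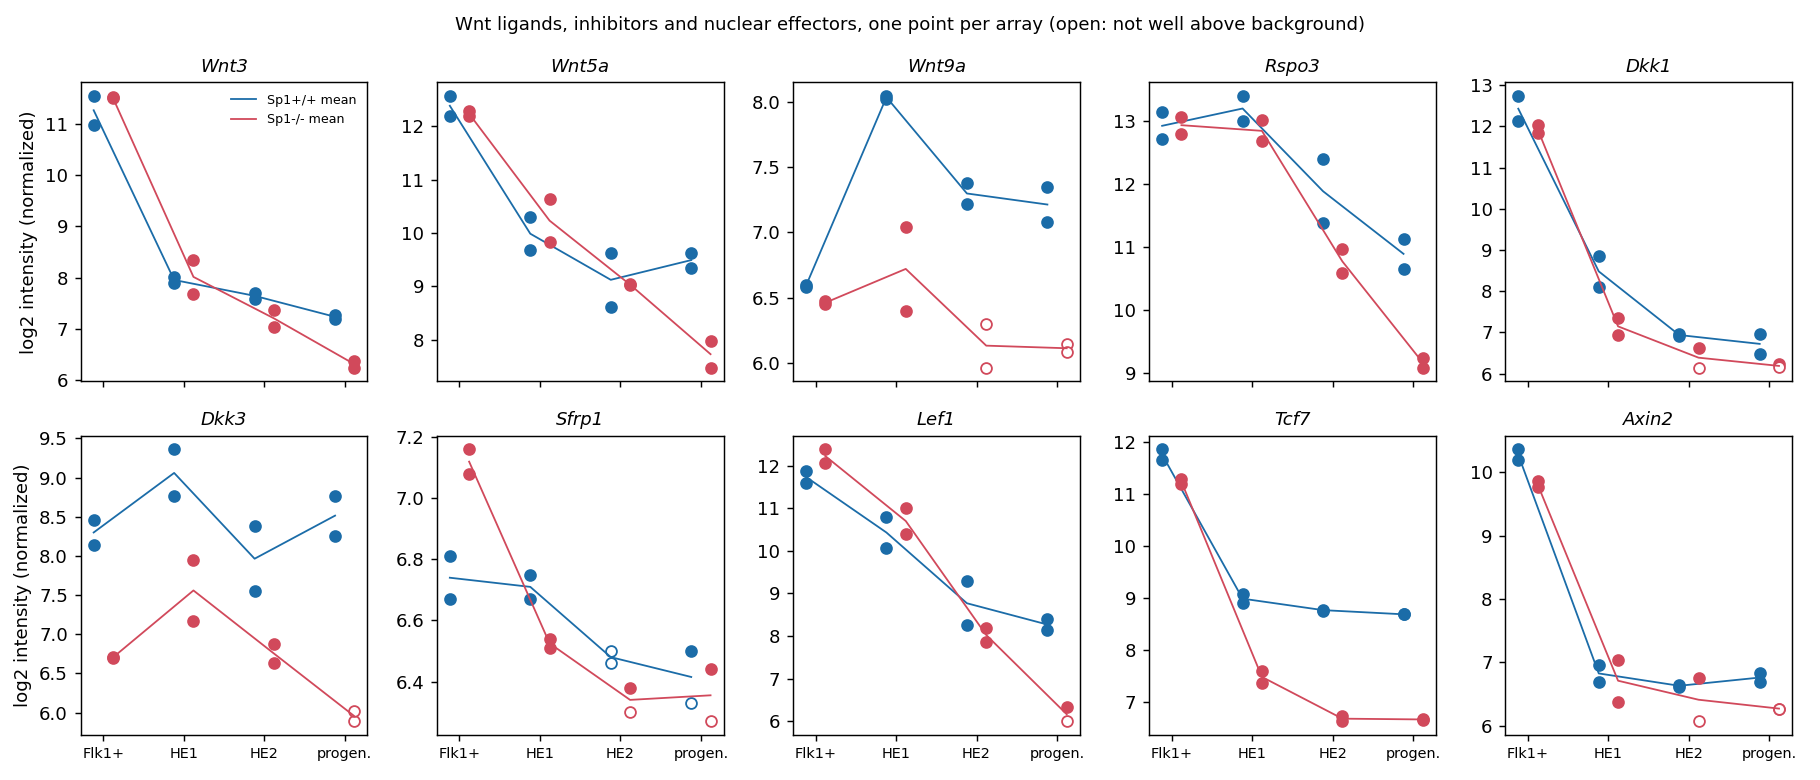
Deposited log2 intensity (vertical axis) of the 10 Wnt genes in Flk1+ cells, HE1, HE2 and progenitors (horizontal axis), with a point for each array, open where not well above background, and lines through the means of 2 arrays per genotype. The Dkk3 arrays of the genotypes are separate in every population, whereas those of Lef1 part widely only in progenitors, at 8.15 to 8.39 in Sp1+/+ and 6.00 to 6.33 in Sp1-/-.

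In Sp1+/+ cells most of these genes lost signal between mesoderm and haemogenic endothelium. From Flk1+ to HE1, 6 of the 10 were called lower and 1 higher, where 8.56% of all genes tested were called. From HE1 to HE2, 4 were called lower and none higher (3.32% of all genes), and from HE2 to progenitors none was called (1.75%). In Sp1-/- cells 6 were called lower at the first step (9.53% of all genes), 3 at the second (5.62%) and 3 at the third (5.01%). None was called higher at any step. Counted over the 3 steps, 9 of the 10 were called at least once in Sp1+/+ cells against 10.8% of all genes, and 7 of the 10 in Sp1-/- cells against 14.6%.

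Against Sp1+/+, 1 of the 10 genes was called lower in Sp1-/- for Flk1+, 4 for HE1, 4 for HE2 and 6 for progenitors. None was called higher. Of all genes tested, 1.66%, 2.11%, 1.96% and 4.12% were called in those populations in either direction, and 0.875%, 1.14%, 1.18% and 2.61% were called lower. The median difference over the 10 genes was -0.14, -0.27, -0.65 and -1.42, beside 0.01 to 0.02 over all genes. Since the 10 genes were chosen with earlier results of these data known, the values of all genes are a reference and not a test. Dkk3 was called in all 4 populations, Tcf7 and Wnt9a in the 3 that followed Flk1+, Rspo3 in HE2 and progenitors, Dkk1 in HE1, and Lef1 and Wnt5a in progenitors. Wnt3, Sfrp1 and Axin2 were called in none. The arrays of the genotypes did not overlap for 7, 5, 8 and 9 of the 10 genes, where 51.6%, 45.0%, 45.4% and 62.5% of all genes did not overlap.

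**Figure D2:**
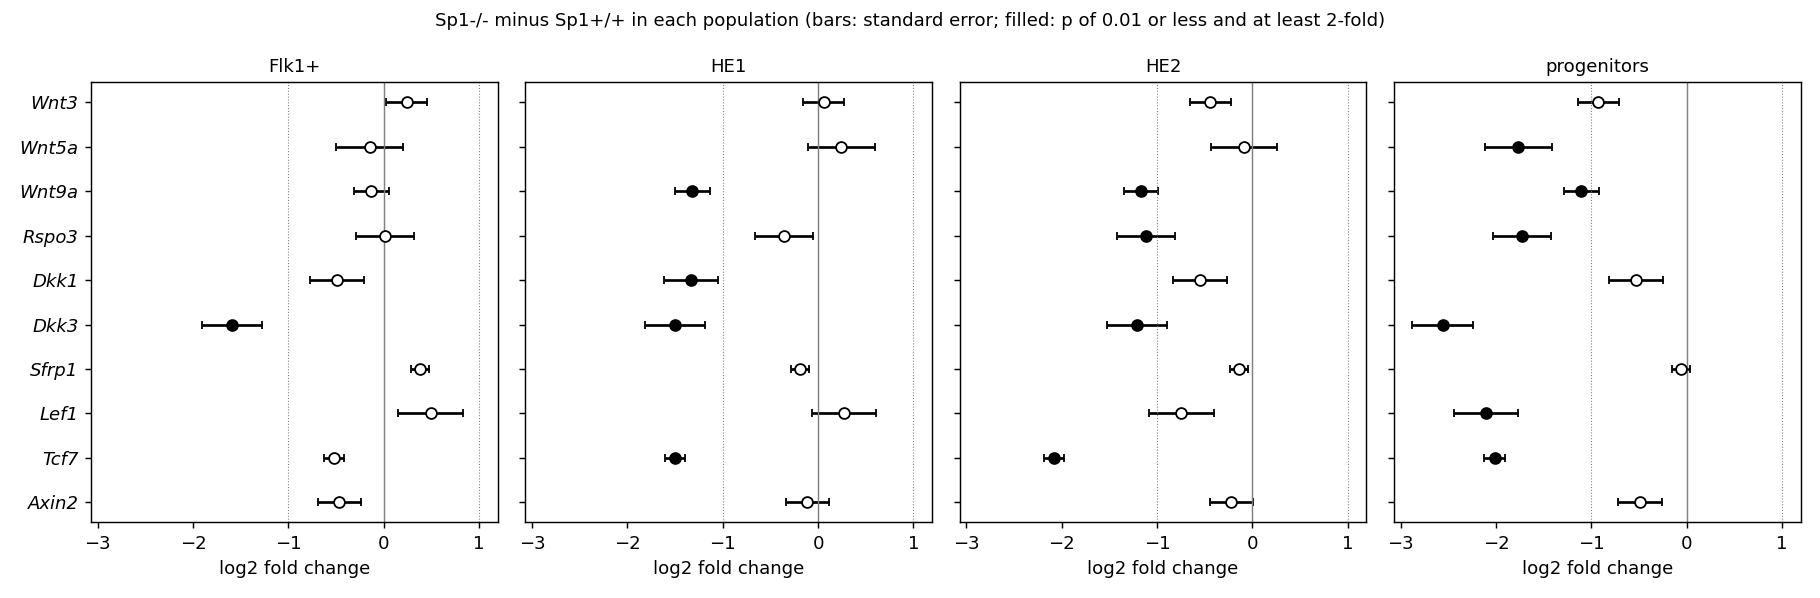
Difference in log2 intensity, Sp1-/- minus Sp1+/+ (horizontal axis), for the 10 Wnt genes (vertical axis), with a panel for each population, bars of 1 standard error and filled points for called values. Of 40 values, 33 are negative and all 15 called values are negative, with Dkk3 in progenitors plotted at -2.56 although its Sp1-/- arrays were not well above background there, nor were those of Wnt9a in HE2 and progenitors.

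Wnt3, a ligand needed for the primitive streak, lies at chr11:103774175-103818021 and was a gene of the Flk1+ stage. In Sp1+/+ cells it read 11.55 and 10.99 in Flk1+ cells, 8.02 and 7.89 in HE1, 7.58 and 7.71 in HE2, with 7.28 and 7.19 in progenitors. The Sp1-/- arrays read 11.52 and 11.50, then 8.35 and 7.68, then 7.37 and 7.04, and 6.24 and 6.38 in progenitors. The step from Flk1+ to HE1 was -3.32 in Sp1+/+ and -3.50 in Sp1-/- (SE 0.217 each), and the arrays of the genotypes overlapped in both populations. In HE2 they were apart, with a difference of -0.44 that was not called. In progenitors they were apart as well, with a difference of -0.93 (SE 0.217, adjusted p = 0.0164), which missed the 2-fold threshold. That value passed it when the arrays were renormalised with the smaller offset stated in the methods (-1.36), with no background correction (-1.18) or from the scanner's processed signal (-2.47).

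Wnt5a (chr14:28504543-28527448), a ligand of cell movement and polarity, also fell on leaving the Flk1+ stage. The Sp1+/+ arrays read 12.57 and 12.20, 10.30 and 9.67, 9.63 and 8.61, and 9.63 and 9.35 from Flk1+ through HE1 and HE2 to progenitors. The Sp1-/- arrays read 12.19 and 12.28, 10.63 and 9.83, 9.02 and 9.04, and 7.98 and 7.47. The genotypes overlapped in the first 3 populations and separated in progenitors, where Sp1-/- was lower by a log2 difference of -1.77 (SE 0.349, adjusted p = 0.00653 in limma). From Flk1+ to HE1 Wnt5a fell by 2.40 in Sp1+/+ and by 2.01 in Sp1-/-. After HE1 no step was called in Sp1+/+ cells (the step to HE2 was -1.38 and called without Sp1+/+ HE2 replicate 1, and -0.36 without Sp1+/+ HE2 replicate 2), whereas in Sp1-/- cells it fell by 1.20 to HE2 and by a further 1.31 to progenitors. The step to HE2 lost its call without Sp1-/- HE1 replicate 1 (-0.80) and the step to progenitors without Sp1-/- progenitor replicate 2 (-1.05), and both did without either Sp1-/- HE2 array (-1.19 and -1.21, -1.32 and -1.30).

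Wnt9a (chr11:59306849-59333552), a ligand used in blood stem cell specification in fish, took another course. In Sp1+/+ cells it read 6.58 and 6.60 in Flk1+ cells, 8.05 and 8.03 in HE1, 7.38 and 7.22 in HE2, with 7.35 and 7.08 in progenitors. In Sp1-/- cells it read 6.47 and 6.45, then 7.04 and 6.40, then 6.30 and 5.96, and 6.14 and 6.08. It was the only gene of the 10 with a called rise at a step, by 1.45 (SE 0.182) from Flk1+ to HE1 in Sp1+/+ cells. The Sp1-/- step was 0.26 and was not called (-0.06 without Sp1-/- HE1 replicate 1, 0.58 without Sp1-/- HE1 replicate 2). Dkk3 rose at the same step by 0.76 in Sp1+/+ and 0.855 in Sp1-/-, with no call. The genotypes differed by -0.13 in Flk1+ cells (adjusted p = 0.785) and by -1.32 in HE1 (adjusted p = 0.00173). In HE2 and progenitors the Sp1-/- arrays were not well above background, so Sp1+/+ was at least 2.24-fold higher in HE2 (adjusted p = 0.00336) and at least 2.15-fold higher in progenitors (adjusted p = 0.00222). Without Sp1+/+ progenitor replicate 1 the progenitor difference was -0.97 and under 2-fold.

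Rspo3 (chr10:29453106-29535867) encodes an R-spondin, which keeps Frizzled receptors on the cell surface and so raises the response to Wnt. It was bright in both early populations, at 12.71 and 13.14 in Sp1+/+ Flk1+ and 13.00 and 13.40 in Sp1+/+ HE1, then 11.38 and 12.39 in HE2, with 11.13 and 10.65 in progenitors. The Sp1-/- arrays read 12.80 and 13.07, 13.01 and 12.68, 10.96 and 10.58, and 9.08 and 9.24. The genotypes overlapped in Flk1+ cells and HE1 and were apart from HE2 on. The difference was 0.01 in Flk1+ cells, -0.36 in HE1, -1.12 in HE2 (SE 0.306, adjusted p = 0.0612) and -1.73 in progenitors (adjusted p = 0.00341). The HE2 call was lost without Sp1+/+ HE2 replicate 2 (-0.61) or without Sp1-/- HE2 replicate 2 (-0.92). From HE1 to HE2 Rspo3 fell by 1.32 in Sp1+/+, a call lost without Sp1+/+ HE2 replicate 1 (-0.81) or HE1 replicate 2, and by 2.08 in Sp1-/-, and from HE2 to progenitors it fell by 1.61 in Sp1-/-. The Sp1+/+ step to progenitors, -0.995, was just short of 2-fold, and it turned on single arrays. It was -1.50 and called without Sp1+/+ HE2 replicate 1, -1.24 and called without Sp1+/+ progenitor replicate 1, and -0.49 without Sp1+/+ HE2 replicate 2.

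Dkk1 (chr19:30545876-30549496), a secreted antagonist that blocks the Lrp co-receptors, had the steepest fall out of the Flk1+ stage among the 10. The Sp1+/+ arrays read 12.74 and 12.12 in Flk1+ cells, 8.85 and 8.11 in HE1, 6.96 and 6.91 in HE2, with 6.97 and 6.47 in progenitors. The Sp1-/- arrays read 11.84 and 12.03, then 7.36 and 6.93, then 6.63 and 6.14, and 6.22 and 6.15. The genotypes did not overlap in any of the 4 populations, but the fall from Flk1+ to HE1 was far larger than the distance between them, at -3.95 in Sp1+/+ and -4.79 in Sp1-/- (SE 0.283). The difference passed the test in HE1 only, at -1.34 (adjusted p = 0.0153), beside -0.50 in Flk1+ cells, -0.55 in HE2 and -0.54 in progenitors. Without Sp1+/+ HE1 replicate 1 it was -0.97, under 2-fold, and from the processed signal it was -1.74 with an unadjusted p of 0.0617. In each of the Sp1-/- HE2 and progenitor groups only 1 of 2 arrays was well above background.

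Dkk3 (chr7:112116019-112159482), a divergent member of the Dickkopf family, was lower in Sp1-/- cells throughout. In Sp1+/+ cells it read 8.14 and 8.46 in Flk1+, 9.36 and 8.76 in HE1, 8.38 and 7.55 in HE2, with 8.77 and 8.26 in progenitors. Sp1-/- cells gave 6.70 and 6.71, 7.95 and 7.17, 6.87 and 6.64, and 5.89 and 6.02. No Sp1-/- array reached a Sp1+/+ array of its own population. The difference was -1.60 in Flk1+ cells (SE 0.316, adjusted p = 0.0123), -1.50 in HE1 (adjusted p = 0.0150) and -1.21 in HE2 (adjusted p = 0.050). The HE2 call was lost without Sp1+/+ HE2 replicate 1 (-0.80) or Sp1-/- HE2 replicate 2 (-1.10). In progenitors the Sp1-/- arrays were not well above background, and Sp1+/+ was at least 5.62-fold higher (adjusted p = 0.000365). Its course over the populations held a single called step, from HE1 to HE2 in Sp1+/+ (-1.10), and that call was lost without Sp1+/+ HE1 replicate 1 (-0.80) or HE2 replicate 2 (-0.68).

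Sfrp1 (chr8:23411383-23449632), a decoy that binds Wnt proteins outside the cell, was dim everywhere. Its 8 Sp1+/+ arrays read 6.81 and 6.67 in Flk1+, 6.67 and 6.75 in HE1, 6.46 and 6.50 in HE2, with 6.50 and 6.33 in progenitors. Its Sp1-/- arrays read 7.16 and 7.08, 6.54 and 6.51, 6.38 and 6.30, and 6.27 and 6.44. No step and no genotype difference was called. The Flk1+ difference of 0.38 (SE 0.0942, adjusted p = 0.0348) had Sp1-/- as the brighter and was far under 2-fold, and the other populations differed by -0.19, -0.14 and -0.06.

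Lef1 (chr3:131110297-131224357) encodes a DNA-binding partner of beta-catenin. In Sp1+/+ cells it read 11.88 and 11.59 in Flk1+, 10.07 and 10.79 in HE1, 8.25 and 9.29 in HE2, with 8.39 and 8.15 in progenitors. Sp1-/- cells gave 12.38 and 12.07, then 10.40 and 11, then 8.18 and 7.87, and 6.00 and 6.33. Both Sp1-/- Flk1+ arrays lay above both Sp1+/+ arrays and the HE1 arrays overlapped, but neither difference (0.49 and 0.27) passed the test. In HE2 the difference was -0.75 (SE 0.338), which was -1.27 and called without Sp1+/+ HE2 replicate 1 and -0.23 without Sp1+/+ HE2 replicate 2. In progenitors Lef1 was 4.30-fold lower in Sp1-/- (log2 difference -2.11, adjusted p = 0.0019), with 1 of the 2 Sp1-/- arrays well above background. Lef1 fell at each of the first 2 steps in Sp1+/+ cells, by 1.31 and 1.66, with no call at the third. In Sp1-/- cells it fell by 1.53, fell by 2.68 and fell by 1.86 at the 3 steps in turn. The first-step calls were lost without replicate 1 of HE1 in either genotype, at -0.95 in Sp1+/+ and -1.23 in Sp1-/-, and in Sp1+/+ also without Flk1+ replicate 1 (-1.16).

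Tcf7 (chr11:52246527-52283383), the other DNA-binding partner among the 10, was separate between genotypes in all populations, with little spread. In Sp1+/+ cells it read 11.85 and 11.65 in Flk1+, 9.08 and 8.90 in HE1, 8.78 and 8.76 in HE2, with 8.69 on both progenitor arrays. In Sp1-/- cells it read 11.28 and 11.18, 7.61 and 7.37, 6.74 and 6.64, and 6.68 and 6.67. The difference was -0.52 in Flk1+ cells (SE 0.106, adjusted p = 0.0142), under 2-fold, then -1.50 in HE1 (adjusted p = 1.46e-05), -2.08 in HE2 (adjusted p = 2.21e-06) and -2.02 in progenitors (adjusted p = 2.19e-06). From Flk1+ to HE1 it fell by 2.76 in Sp1+/+, it fell by 3.74 in Sp1-/-, and neither genotype had a called step after that. The Sp1-/- step from HE1 to HE2 was -0.80 (-0.92 to -0.68 with single arrays left out), under 2-fold, beside -0.22 in Sp1+/+. A second, dimmer Tcf7 probe gave genotype differences of -0.33, -0.53, -0.50 and -0.33, and none was called.

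Axin2 (chr11:108917828-108950783), a widely used readout of beta-catenin signalling, was high in Flk1+ cells and dim after. Sp1+/+ arrays read 10.36 and 10.19 in Flk1+, 6.96 and 6.69 in HE1, 6.65 and 6.61 in HE2, with 6.83 and 6.69 in progenitors. Sp1-/- arrays read 9.86 and 9.76, 7.04 and 6.38, 6.75 and 6.07, and 6.27 on both progenitor arrays, where neither was well above background. The fall from Flk1+ to HE1 was -3.45 in Sp1+/+ and -3.10 in Sp1-/- (SE 0.227). No genotype difference was called, at -0.47, -0.12, -0.22 and -0.49. A second Axin2 probe gave -0.31, 0.41, 0.04 and 0.27 and a smaller first step, -1.93 in Sp1+/+ and -1.21 in Sp1-/-.

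**Figure D3:**
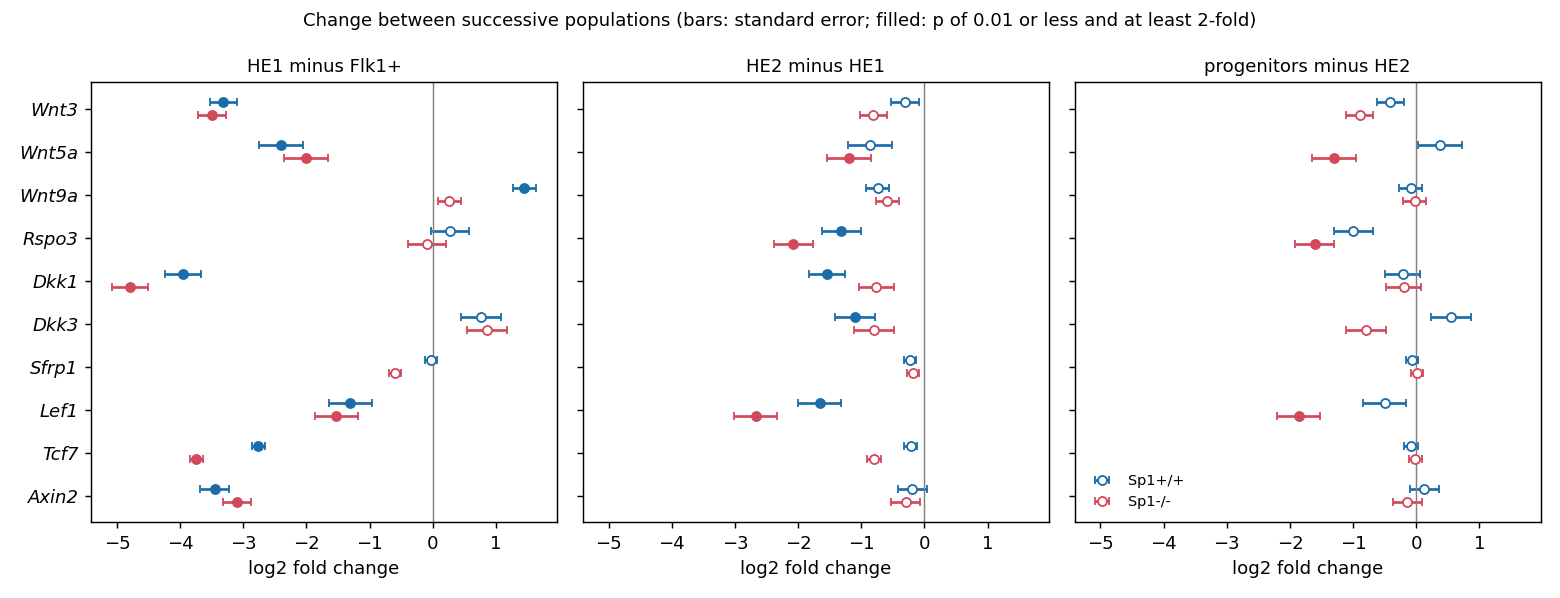
Step between successive populations in log2 intensity (horizontal axis) for the 10 Wnt genes (vertical axis), Sp1+/+ beside Sp1-/-, with bars of 1 standard error and filled points for called values. At the first step the only called rise is that of Wnt9a in Sp1+/+, at 1.45, beside 0.26 in Sp1-/- (-0.06 without Sp1-/- HE1 replicate 1). At the third step the called falls of Lef1, Rspo3 and Wnt5a are all in Sp1-/-.

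Whether the effect of Sp1 loss differed between populations was tested with interaction terms. For Tcf7 the effect in HE2 minus that in Flk1+ cells was -1.56 (adjusted p = 0.00128) and the effect in progenitors minus that in Flk1+ cells was -1.50 (adjusted p = 0.000719), both lost when the 2 Tcf7 probes were averaged (-0.87 and -0.75). For Lef1 the progenitor effect minus the Flk1+ effect was -2.60 (adjusted p = 0.0114), and minus the HE1 effect it was -2.38 (adjusted p = 0.0232). For Rspo3 the progenitor effect minus the Flk1+ effect was -1.74 (adjusted p = 0.0432), a call lost without replicate 1 of Sp1+/+ progenitors (-1.50) or of Sp1+/+ Flk1+ (-1.53). Of the 10 genes, 5 passed the call rule between progenitors and Flk1+ cells, where 3.83% of all genes did, 3 between progenitors and HE1 (3.07%), 2 between HE2 and Flk1+ cells (1.67%), 1 between HE1 and Flk1+ cells (1.60%), 1 between progenitors and HE2 (1.60%) and 0 between HE2 and HE1 (0.743%). In that last comparison 1 gene had an unadjusted p under 0.05. An F test over all interaction terms gave an adjusted p of 0.00125 for Tcf7 and 0.0284 for Lef1. The remaining 8 genes had adjusted p-values above 0.05 in it, and 4.17% of all genes were below.

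Genes of other cell types moved in the same populations. In progenitors, 5 of 6 mesenchymal markers (Col1a1, Col1a2, Col3a1, Postn and Twist1) were called lower in Sp1-/-, and the log2 of their summed signal was 13.55 to 14.14 in Sp1+/+ and 10.78 to 10.80 in Sp1-/-. Of 6 smooth muscle and heart markers, 3 (Acta2, Tagln and Cnn1) were lower, with sums of 17.02 to 17.48 against 13.53 to 13.66, and of 8 endothelial markers, 2 (Cdh5 and Esam) were lower, with sums of 12.99 to 13.99 against 11.85 to 12.10. In these same cells Wnt5a, Rspo3, Lef1, Dkk3, Tcf7 and Wnt9a were lower, and the part of these cells in that result was not tested. In HE1, where Wnt9a, Dkk1, Dkk3 and Tcf7 were lower in Sp1-/-, the mesenchymal sum was 12.88 to 14.29 in Sp1+/+ and 13.82 to 14.68 in Sp1-/-, and the smooth muscle and heart sum 17.64 to 18.25 and 17.91 to 18.56. Single markers did move there: Twist1 (means 10.31 and 9.20) and the ES-cell marker Dppa5a were called lower. In HE1, 2 smooth muscle and heart markers (Myl7 and Tnnt2) and 2 of 9 blood markers (Runx1 and Gfi1b) were called higher. The endothelial sums given above for HE1 did not overlap, with 0 of 8 endothelial markers called. In HE2, Twist1 and Dppa5a were called lower and Ptprc, a blood marker, higher. The part of these markers in the HE1 and HE2 results was not tested.

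**Figure D4:**
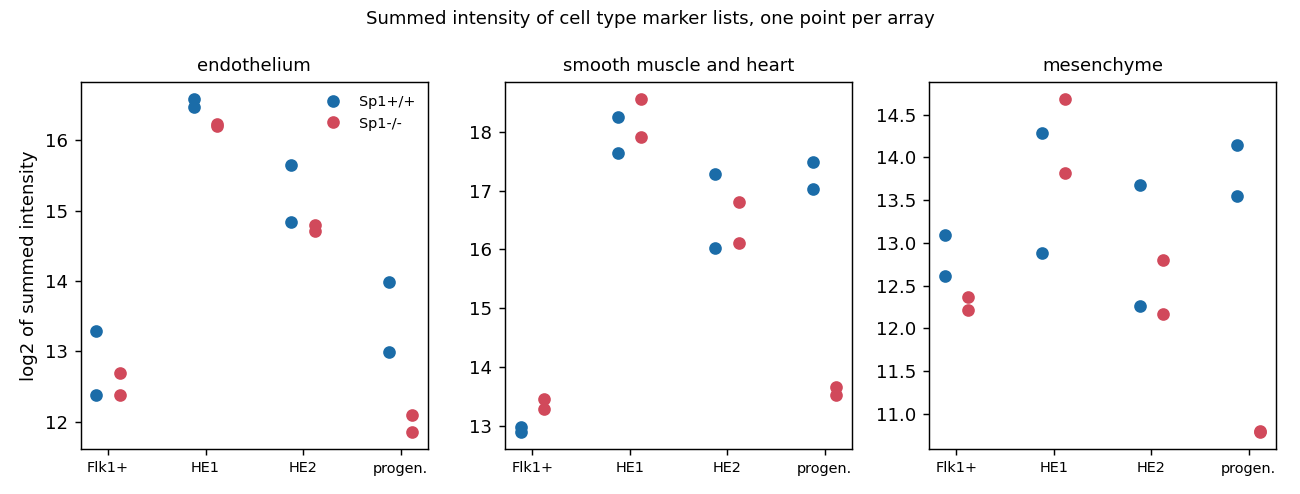
Log2 of the summed intensity (vertical axis) of the endothelial, smooth muscle and heart, and mesenchymal marker lists on every array, by population (horizontal axis) and genotype. In progenitors the mesenchymal sums are 13.55 to 14.14 in Sp1+/+ and 10.78 to 10.80 in Sp1-/-, a gap that HE1 does not show.

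A list of 81 further pathway genes was read in the same way, and 78 of them were well above background on both arrays of at least 1 group. In Flk1+ cells 4 were called higher and 3 lower in Sp1-/-, in HE1 2 were called higher, and in HE2 2 lower. In progenitors 2 were called higher and 8 lower. Of all genes tested, 1.66%, 2.11%, 1.96% and 4.12% were called in those populations in either direction. The HE1 and HE2 counts were near those shares. The medians of the 81 were 0.03, 0.07, 0.03 and -0.01. Of 16 other ligands, Wnt4 alone was called, in progenitors, where it read 9.51 and 9.33 in Sp1+/+ and 6.43 and 6.42 in Sp1-/- (log2 difference -3.00, adjusted p = 0.00217). Of the 3 other R-spondins, Rspo1 was lower in Flk1+ cells (-1.50) and Rspo4 was higher in progenitors, at 6.51 and 7.01 in Sp1+/+ and 8.32 and 8.46 in Sp1-/- (adjusted p = 0.000149).

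Of the 22 receptors in the list of 81, 4 were called lower in progenitors, where 2.61% of all genes were called lower. Fzd2, a Frizzled, read 11.29 and 10.52 in Sp1+/+ progenitors and 7.12 and 7.35 in Sp1-/- progenitors (log2 difference -3.67, adjusted p = 0.000116). Fzd1 (-1.21), Fzd10 (-1.28) and Ror2, a co-receptor for Wnt5a (at least 2.51-fold higher in Sp1+/+), went with it. Fzd2 (-1.27) and Ror2 (-1.02) were also the 2 genes called in HE2, neither with an adjusted p of 0.05 or less, and both calls were lost without Sp1+/+ HE2 replicate 1 (-0.78 and -0.84) or Sp1-/- HE2 replicate 2 (-0.96 and -0.93). The Fzd2 call was lost as well without either Sp1-/- Flk1+ array, and the Ror2 call without Sp1-/- HE2 replicate 1 (-1.12). In Flk1+ cells the receptor called was Fzd9 (-1.68).

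Among the genes listed as secreted inhibitors, Cer1 had the largest difference of the list in Flk1+ cells. The study describes Cer1 as an inhibitor of BMP signalling. Cer1 read 6.43 and 6.08 in Sp1+/+ (1 of 2 arrays well above background) and 10.23 and 9.30 in Sp1-/- (log2 difference 3.51, adjusted p = 1.79e-05). Sfrp5, a relative of Sfrp1, was higher in Sp1-/- Flk1+ cells (1.71) and progenitors (1.45), and Sfrp2 was lower in progenitors (-1.51). So the genes listed as secreted inhibitors did not move in a single direction: Dkk1, Dkk3 and Sfrp2 were called lower in Sp1-/-, Cer1 and Sfrp5 higher. In the same Flk1+ cells, 1 of 5 endoderm markers, Foxa2, was called higher in Sp1-/- (means 6.62 and 9.30), and the log2 of the endoderm sum was 9.64 to 10.12 in Sp1+/+ and 10.71 to 10.98 in Sp1-/-. Of 4 ES-cell markers, Dppa5a was called lower (means 14.09 and 12.59) and carried the sum of that list, 14.11 to 14.33 against 12.77 to 13.30. Pou5f1, Nanog and Zfp42 were not called, and the median difference of the list was 0.22. Dppa5a was also called lower in HE1 (means 8.00 and 6.57), HE2 (8.04 and 6.59) and progenitors (8.28 and 6.69), so its difference was not particular to Flk1+ cells. Twist1 and Myh6 were called lower and Myl7 higher in Sp1-/- Flk1+ cells as well. The part of these markers in the Flk1+ results was not tested.

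Of 12 other nuclear genes only Tcf7l1, a repressive relative of Tcf7, was called, in progenitors, at 9.03 and 8.17 in Sp1+/+ and 6.49 and 6.58 in Sp1-/- (log2 difference -2.07, adjusted p = 0.00276). Beta-catenin itself (Ctnnb1) differed by 0.35, -0.29, 0.04 and -0.35 from Flk1+ cells to progenitors, and Tcf7l2 by 0.29, 0.55, 0.36 and 0.13, none of them called. Dvl3 (1.30) and Nkd1 (1.43), both listed in the group of destruction complex and Dvl genes, were called higher in Sp1-/- HE1. Gsk3b, a kinase of the destruction complex, gave 0.18, 0.37, 0.23 and 0.17. Among 6 other target genes, Sp5 was higher (1.93) and Cdx1 lower (-1.08) in Flk1+ cells, and Ccnd1, a cyclin of the cell cycle, was lower in progenitors, at 11.16 and 11.10 against 8.94 and 8.96 (adjusted p = 0.0207). The Sp5 difference was 1.035 without Sp1+/+ Flk1+ replicate 2 and 2.815 without Sp1+/+ Flk1+ replicate 1. Its call was lost from the processed signal and when only the arrays compared were fitted. Porcn, which adds the lipid that Wnt proteins need for secretion, was higher in Flk1+ cells (1.03).

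Leaving out single arrays removed some of these calls. Without Sp1+/+ progenitor replicate 1, Fzd1 (-0.99), Fzd10 (-0.82), Ror2 (-1.08), Sfrp2 (-1.30) and Ccnd1 (-2.15) were not called, and Ccnd1 was not called without either Sp1-/- progenitor array. Fzd10 (-0.92) was also lost without Sp1-/- progenitor replicate 1, Cdx1 (-0.89) without Sp1-/- Flk1+ replicate 2, Sp5 (1.62) and Porcn (0.84) without Sp1-/- Flk1+ replicate 1, Porcn (0.87) without Sp1+/+ Flk1+ replicate 2, and Dvl3 without Sp1+/+ HE1 replicate 1 (1.07) or Sp1-/- HE1 replicate 2 (0.72). Nkd1 averaged over its probes came to 1.00 and was under the threshold.

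**Figure D5:**
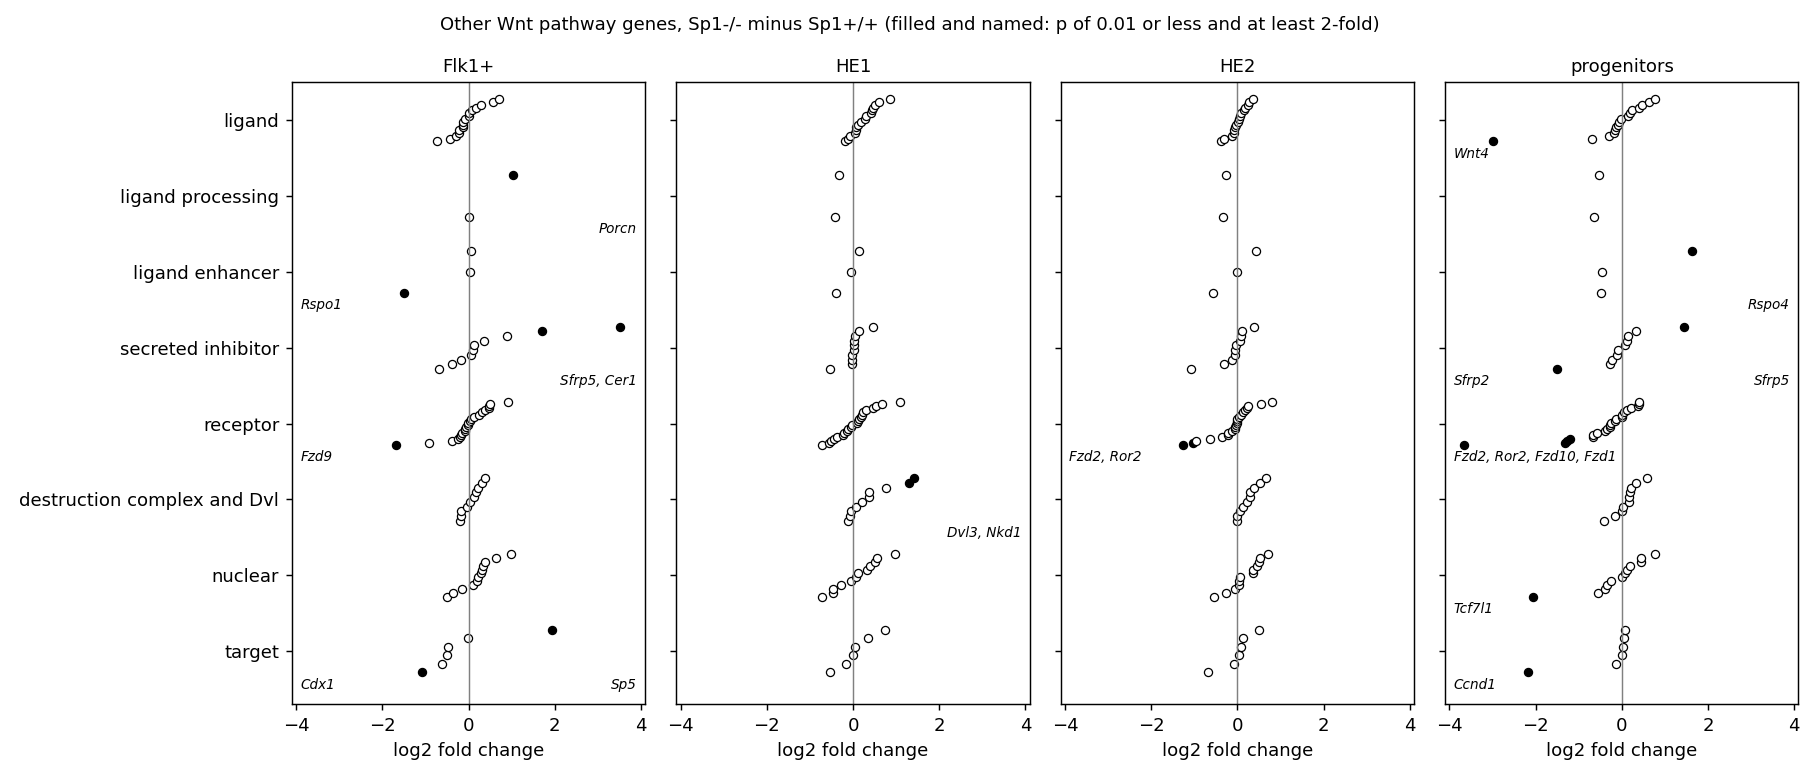
Difference in log2 intensity, Sp1-/- minus Sp1+/+, (horizontal axis), of the 81 other pathway genes by role (vertical axis), with a panel for each population and called genes named. The largest differences are Cer1 in Flk1+ cells at 3.51 and Fzd2 in progenitors at -3.67.

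The courses of the 10 genes over the 8 group means were compared as a description, with no test, since groups share slides and cultures. Dkk1 ran most closely with Axin2 (r = 0.979) and with Wnt3 (r = 0.978), all high in Flk1+ cells. Wnt9a ran with Dkk3 (r = 0.868), and its lowest correlation was with Axin2 (r = -0.175). Over all genes of sufficient range, those nearest to Lef1 were Gjc1, Slc6a8 and Tead4 (r = 0.994 each), those nearest to Wnt9a were B3gnt9 and Crip1 (r = 0.967) and Lrrk2 (r = 0.965), and those nearest to Dkk1 were Gprc5b (r = 0.995), Ndrg4 (r = 0.993) and Efcab10 (r = 0.991).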

How the data were processed

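RNA of 16 samples was hybridised to single-colour Agilent SurePrint G3 mouse arrays and, per the labels, read with Feature Extraction 10.7.1.1. The authors deposited spot intensity files and a table of normalised log2 values, 5.65 to 18.99. Background correction in the Supplementary Methods is limma's normexp, offset 16, before quantile normalisation, whereas the deposited log2 values equal an offset of 50 within 0.005. Those log2 values were analysed, and the deposited intensity columns served for the alternatives and for the background flags (67.0% to 77.1% of spots well above background per array, none saturated, which with 2 arrays a group limits the precision).

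Of 62976 spots, 59305 were not controls. Spots flagged by the scanner as outliers, 95 to 182 on an array, were dropped, and repeat spots of 432 probes were averaged. A log2 minimum of 6 on at least 1 array passed 55595 of 55681 probes. RefSeq names (GRCm38.p6) were found for 20869 of 37932 targets by accession and 6 by symbol, and the brightest probe stood for a gene (20121 of 37154 genes tested have a symbol). A model of 8 group means was fitted in limma 3.58.1 (R 4.3.3, data.table, version 1.17.8) with 8 residual degrees of freedom, and genotype, step and interaction contrasts were read from it. "At least" folds set the brighter group against each array's lowest log2 value well above background (5.85 to 6.06), or the dim probe's own value where higher.

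The 10 genes are all named, other pathway genes where called or as central components, and the 3 nearest genes by correlation over group means for Lef1, Wnt9a and Dkk1. The genes and lists were chosen with earlier results of these data known. The scripts were tested on simulated data. Alternatives were an offset of 16, no background correction, the processed signal, 2 filters on dim probes, the mean over probes, 2 replicate blocks, an adjusted p of 0.05, fits on only the arrays compared, each array left out and, chosen after seeing the data, limma's intensity trend.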

Additional observations from a re-analysis of the deposited data

Results flagged for a closer look

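The following values are differences in the Sp1-/- effect between populations, on the log2 scale, and stand out because their interaction term passed the test (an unadjusted p of 0.01 and 2-fold in limma). Against Flk1+ cells, the effect on Wnt9a was more negative in HE1 (-1.19, adjusted p = 0.0613) and in HE2 (-1.04, adjusted p = 0.0993), both short of an adjusted p of 0.05. The HE1 value was -0.87 without Sp1-/- HE1 replicate 2, and the HE2 value was -0.96 without Sp1+/+ HE2 replicate 1 and -0.87 without Sp1-/- HE2 replicate 2. Tcf7 gave -1.56 in HE2 and -1.50 in progenitors against Flk1+ cells. In progenitors against Flk1+ cells, Lef1 gave -2.60, Rspo3 -1.74 (adjusted p = 0.0432), Wnt5a -1.61 (adjusted p = 0.0954) and Wnt3 -1.17 (adjusted p = 0.0551). The Wnt3 value was -0.89 without Sp1+/+ Flk1+ replicate 2, and leaving out any of 8 arrays took the call from the Wnt5a value, at -1.36 to -1.76. In progenitors against HE1, Lef1 gave -2.38, Wnt5a -2.01 (adjusted p = 0.0547) and Rspo3 -1.38 (adjusted p = 0.135). The Wnt5a value lost its call without Sp1+/+ HE1 replicate 2 (-1.695), and the Rspo3 value on leaving out any of 12 arrays (-1.14 to -1.54). In progenitors against HE2 Wnt5a gave -1.68 (adjusted p = 0.201), or -1.17 without Sp1+/+ HE2 replicate 2, and the call was lost on leaving out any of 5 arrays.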

How the results depend on the processing

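The numbers of the 10 genes called (1, 4, 4 and 6 from Flk1+ cells to progenitors) were 2 in HE2 when only the arrays of that comparison were fitted, and the number with an interaction against Flk1+ cells was 3 in place of 5 at an adjusted p of 0.05. For the other pathway genes, the HE1 count of 2 was 6 from the processed signal and 1 with the mean over probes, and the HE2 count of 2 was 7 from the processed signal, 1 with the mean over probes, 1 with only the arrays compared and 0 at an adjusted p of 0.05. Over the settings that left out an array, the 10 genes gave 1 to 1 in Flk1+ cells, 3 to 4 in HE1, 2 to 4 in HE2 (2 without Sp1-/- HE2 replicate 2), 5 to 6 in progenitors, 8 to 9 with a Sp1+/+ step, 7 to 8 with a Sp1-/- step and 2 to 5 with an interaction (2 without Sp1+/+ progenitor replicate 1, 3 without Sp1+/+ Flk1+ replicate 2). The other pathway genes gave 5 to 12 (12 without Sp1+/+ Flk1+ replicate 1), 1 to 4, 0 to 3 (0 without Sp1-/- HE2 replicate 2) and 5 to 10 (5 without Sp1+/+ progenitor replicate 1). The cause was not tested. Of 1080 single genotype values of the 10 genes under all settings, 10 lost their call, 4 gained one and none changed direction with a call. Only the 15 differences called in the main fit could lose a call, and leaving out an array of other groups does not change a difference. The calls lost were those of Wnt9a in progenitors, Rspo3 and Dkk3 in HE2, and Dkk1 in HE1. The calls gained were those of Wnt3 in progenitors and Lef1 in HE2. From the processed signal the median genotype difference of all genes was 0.196 in HE1 (0.01 in the deposited values), 0.110 in HE2 (0.015) and 0.109 in progenitors (0.02), and the share of calls that were lower was 32.9% in HE1 (53.8%) and 42.5% in HE2 (60.4%). Same-numbered arrays did not all deviate together, with r of -0.17 to 0.28 over 4 pairs of a population (2 of them over 0.1) and -0.15 to 0.50 over 12 pairs of a genotype (5 over 0.1), so the numbers were not taken as pairs. With the replicate number as a block the 10 genes gave 1, 4, 4 and 6, and the other pathway genes 7, 2, 3 and 10.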
